A study of Mus musculus with 8 samples.

Results

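The receptors described here were 8 G protein-coupled receptors through which neutrophils sense bacterial products, activated complement and inflammatory lipids or metabolites. They were Fpr1, Fpr2, C5ar1, C5ar2, C3ar1, Ptafr, Gpr84 and Hcar2, chosen by name among the 19836 gene symbols that could be attached to a row of the deposited table. Each of the 8 was measured by 1 row of log2 expression values. Lung neutrophils came from wild type mice, labelled as 6 to 12 weeks old, given Streptococcus pneumoniae (SP, the pneumococcus, a bacterial cause of pneumonia) or phosphate-buffered saline (PBS). Both groups were given 2.3 µl per g of body weight through the trachea into the left lung, and cells were taken after 24 h. Cells were pulled out of digested lungs with magnetic beads that bind Ly6G, which mouse neutrophils carry on their surface. Purity was examined by the study in the pneumonia samples only, where it reported few other cells, mostly resembling alveolar macrophages. Each of 4 PBS and 4 SP samples was hybridised to its own Affymetrix Mouse Gene 1.1 ST array, so precision is limited by there being 4 arrays a group. The study's text describes the samples as each from a mouse, while the labels name no animals, and p-values measure the spread between these samples.

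Chemoattractant receptors of this kind span the membrane of the cell and, with the exception of C5ar2, pass their signal to inhibitory G proteins, whose beta and gamma subunits activate phosphoinositide 3-kinase gamma and phospholipase C beta. For the formyl peptide receptors, C5ar1 and Ptafr, the outcome in a neutrophil is directed migration, granule release and oxidant production. G protein-coupled receptor kinases and arrestins then switch the receptor off, and RGS proteins shorten the G protein signal. N-formyl peptides are released by bacteria and mitochondria, C3a and C5a are cut from complement C3 and C5, and platelet-activating factor (PAF) is a phospholipid made by activated leukocytes.

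Of the 8 receptors, 4 were much higher during pneumonia and the others differed less. Gpr84, Hcar2, Ptafr and C3ar1 were between 4.86-fold and 20-fold higher in SP. Fpr2 was higher by 1.48-fold. The principal receptors for formyl peptides and C5a, Fpr1 and C5ar1, and the second C5a receptor C5ar2 did not pass the test. In PBS, Fpr1 was already brighter than 99.5% of all rows and C5ar1 than 98.6%. Differences may be compressed among such bright rows, which was not tested. In all, 5 of the 8 passed an adjusted p of 0.05 by limma, each of them higher in SP, where 21.5% of all rows were called higher, 22.6% lower and 44.1% in either direction. At least 2-fold rises were found for 4 of the 8, where 6.37% of all rows rose that far. Members were chosen with earlier results of these data known, so these counts are a description.

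**Figure D1:**
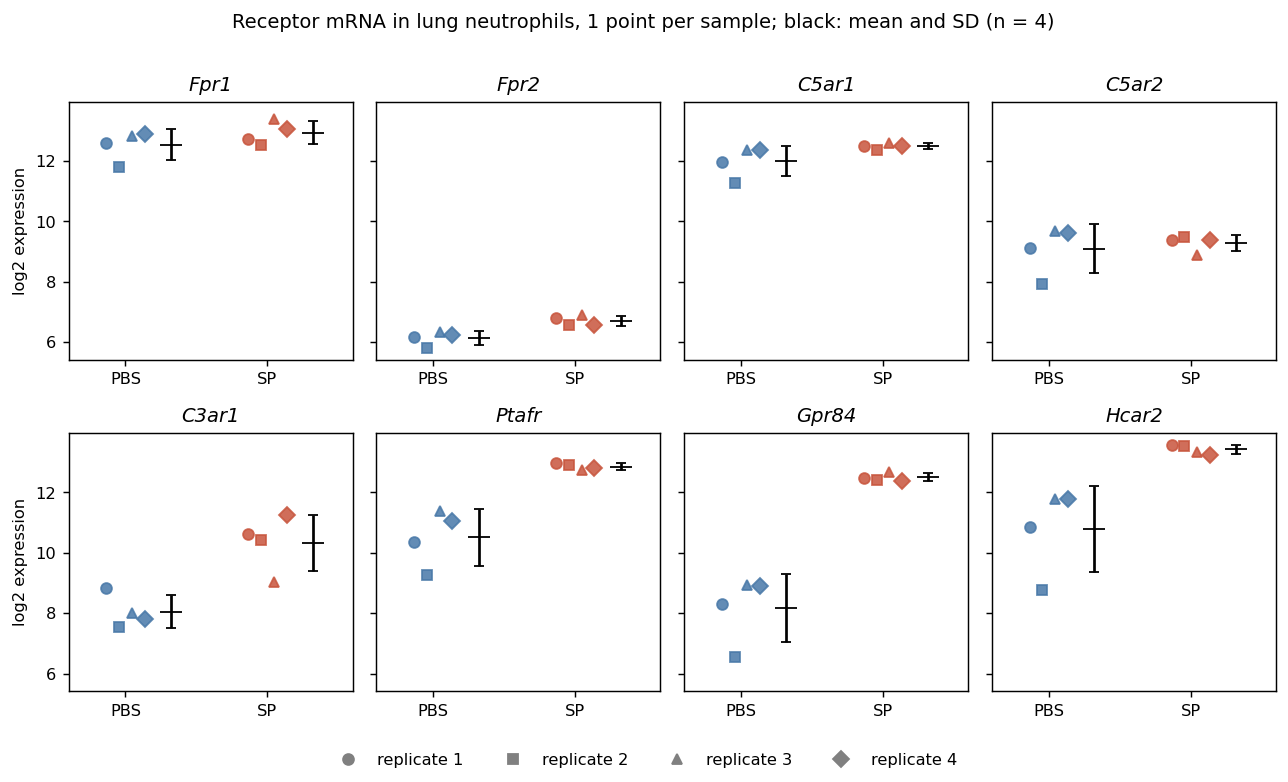
Log2 expression (vertical axis) of each receptor in the 4 PBS samples (blue) and the 4 SP samples (red), with symbols for the replicate and black marks for mean and SD (n = 4). PBS replicate 2 (square) is the lowest PBS value in all 8 panels, and the SP values of Gpr84, Ptafr and Hcar2 lie close together and above every PBS value.

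A few facts about the samples bear on all of these values. Array medians lay between 6.06 and 6.20 in PBS and between 5.78 and 5.91 in SP, and no 2 arrays were identical. The mean of 12 neutrophil markers, such as Lcn2 and Retnlg, was 12.52 to 12.83 in PBS samples and 12.17 to 12.99 in SP samples. Of these 12, 2 were called higher and 3 lower (21.5% and 22.6% of all rows), and none differed 2-fold. Without SP replicate 3, 2 were at least 2-fold lower, and with arrays centred on their median 1 was at least 2-fold higher. Ly6g itself had no matched row, while the study states that its mRNA was high in every sample. Markers of other lung cells were present too. The mean of 12 epithelial markers was 11.27 to 11.82 in PBS and 9.47 to 10.27 in SP, and all 12 were called lower, 9 of them at least 2-fold. Of all rows, 22.6% were called lower and 11.3% were at least 2-fold lower. Endothelial markers also differed (8 of 9 called lower, mean 10.46 to 11.43 in PBS and 8.72 to 9.88 in SP). So did B cell markers (7 of 7 called lower) and alveolar macrophage markers (8 of 12 at least 2-fold lower). The alveolar macrophage marker Chil3 was instead called higher, by 0.97 log2 units (adjusted p = 0.0216 by limma). None of the epithelial, endothelial, B cell or alveolar macrophage markers lay below the lower quartile of the arrays in all samples, and their part in the receptor differences was not tested. In samples of this kind fewer cells of a type and less RNA per cell cannot be told apart.

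PBS replicate 2 stood apart in the receptors. It held the lowest of the 4 PBS values for 8 of 8 receptors. The same sample had the lowest neutrophil marker mean of its group (12.52 against 12.66 to 12.83) and the highest epithelial (11.82 against 11.27 to 11.59) and endothelial (11.43 against 10.46 to 11.07) means. Whether this mixture accounts for its low receptor values was not tested, and the differences below are given with and without it where they move.

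Formyl peptide receptors were compared first. Fpr1 (NM_013521), the high-affinity receptor for N-formyl peptides, lay at 12.61, 11.80, 12.84 and 12.91 in PBS replicates 1 to 4 and at 12.73, 12.54, 13.40 and 13.05 in SP replicates 1 to 4. It was bright in every sample and the groups overlapped. The difference was 0.39 log2 units (SE 0.27, n = 4 per group, 95% interval -0.24 to 1.02, adjusted p = 0.254 by limma). It shrank to 0.15 without PBS replicate 2 and to -0.01 when SP replicate 3, its highest value, was left out as well. A 2-fold rise lies just inside the interval and a fall of 2-fold outside it.

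Fpr2 (NM_008039), a lower-affinity formyl peptide receptor that also binds serum amyloid A, annexin A1 and the cathelicidin peptide, lay at 6.16, 5.81, 6.34 and 6.24 in PBS and at 6.81, 6.55, 6.89 and 6.56 in SP. All SP values lay above all PBS values, with a narrow gap. Of all rows, 27.2% had every SP value above every PBS value and 21.8% the reverse. Fpr2 rose by 0.57 log2 units (SE 0.14, n = 4 per group, adjusted p = 0.0105 by limma), which is 1.48-fold and below the 2-fold threshold. Rescaling the arrays moved it most, to 0.95 after another quantile normalization. The rise was 0.46 without PBS replicate 2 and 0.39 when SP replicate 3 was left out as well. Fpr1 and Fpr2 are next to each other on chromosome 17 of the mouse assembly GRCm38.p6, with no annotated gene between their starts. On the same array, the Fpr2 minus Fpr1 difference changed between PBS and SP by 0.17 log2 units (SE 0.21, exact permutation p = 0.371), less than its spread within either group. This depended on the scaling, since the change was 0.74 after another quantile normalization (exact permutation p = 0.0762, adjusted over the 4 pairs).

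Complement receptors came next. C5ar1 (NM_001173550) is the receptor through which C5a draws neutrophils into tissue. Its values were 11.97, 11.28, 12.35 and 12.36 in PBS and 12.50, 12.36, 12.60 and 12.48 in SP. The SP samples were tightly grouped just above the PBS range, with the lowest SP and highest PBS values coinciding at 2 decimals. The difference of 0.50 log2 units (SE 0.23, n = 4 per group, 95% interval -0.02 to 1.02) missed the threshold (limma, adjusted p = 0.101). This depended on the scaling. C5ar1 was called at 0.78 with arrays centred on their median (adjusted p = 0.0171) and at 0.69 with arrays centred on the neutrophil markers (adjusted p = 0.0455), and it was 0.26 without PBS replicate 2 (adjusted p = 0.123).

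C5ar2 (NM_001146005) is a second C5a receptor that does not couple to G proteins and is known to bind beta-arrestin. Its values were 9.12, 7.94, 9.69 and 9.61 in PBS and 9.37, 9.49, 8.88 and 9.37 in SP. The SP values fell inside the PBS range. The difference was 0.19 log2 units (SE 0.37, n = 4 per group, 95% interval -0.65 to 1.03, adjusted p = 0.673 by limma), and its sign turned to -0.20 without PBS replicate 2. C5ar2 lies beside C5ar1 on chromosome 7 of GRCm38.p6 with no protein-coding gene between their starts. The C5ar2 minus C5ar1 difference within an array changed by -0.31 (SE 0.24, exact permutation p = 0.257), and by -0.02 after another quantile normalization.

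C3ar1 (NM_009779), the receptor for C3a, differed from both C5a receptors in its values. PBS samples lay at 8.83, 7.55, 8.01 and 7.82 and SP samples at 10.63, 10.41, 9.03 and 11.26. Every SP value was above every PBS value, but SP replicate 3 was only just so and the SP group was wide. C3ar1 rose by 2.28 log2 units, or 4.86-fold (SE 0.47, n = 4 per group, 95% interval 1.21 to 3.35, adjusted p = 0.00501 by limma). Without SP replicate 3 the difference was 2.72, and without PBS replicate 2 it was 2.11. It was smallest, at 1.97, without SP replicate 4. The C3ar1 minus C5ar1 difference within an array was larger in SP by 1.78 (SE 0.59, exact permutation p = 0.0571), and PBS and SP overlapped because of SP replicate 3.

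C3ar1 is also a gene of monocytes and macrophages, so markers of those cells are given beside it. Of 14 measured markers, 6 were called higher in SP and 1 lower, where 21.5% and 22.6% of all rows were. At least 2-fold rises were found for 5 of them (6.37% of all rows), among which Cd68, Adgre1, Itgax and Ms4a7 rose by 1.15 to 1.32 log2 units. Itgax encodes CD11c, a protein that the study also found higher on lung neutrophils in pneumonia by flow cytometry. C1qa, C1qb and C1qc, which mark tissue macrophages, differed by -0.30 to 0.13 and were not called. Within the SP group, each of them was lowest in replicate 3 and highest in replicate 4, as was C3ar1. The mean of the 14 was 9.74, 8.95, 9.55 and 9.47 in PBS and 10.16, 10.09, 9.25 and 10.34 in SP. SP replicate 3 was the lowest and SP replicate 4 the highest SP sample for this mean, as for C3ar1. No marker of this list was below the lower quartile of the arrays in all samples, and the part of monocytes or macrophages in the C3ar1 difference was not tested. Leaving out SP replicate 3 made the C3ar1 difference larger, as given above, while the count of markers at 2-fold was 6 without SP replicate 3, 3 without PBS replicate 2, SP replicate 1, SP replicate 2 or SP replicate 4, and 8 with arrays centred on their median.

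**Figure D2:**
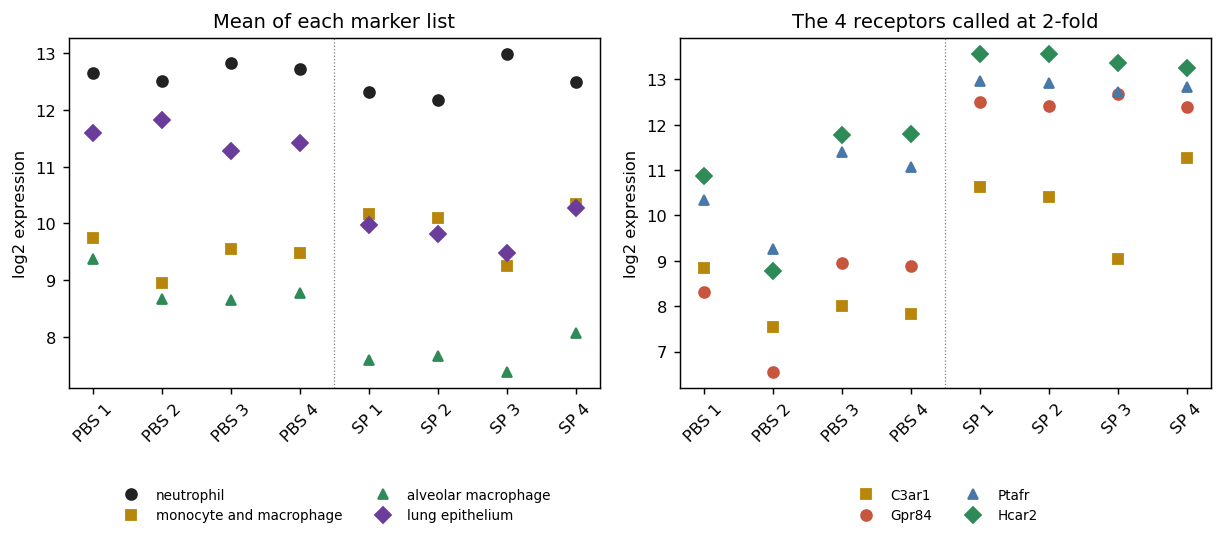
Mean log2 expression of 4 marker lists (left) and of the 4 receptors called at 2-fold (right) in each of the 8 samples on the horizontal axis. In SP replicate 3 the monocyte and macrophage mean (9.25) and C3ar1 (9.03) are both the lowest of their SP group, while Gpr84 (12.68) is the highest of its group.

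The PAF receptor Ptafr (NM_001081211) was among the strongly raised receptors. The phosphorylcholine on the pneumococcal surface is known to bind the same receptor. Ptafr lay at 10.35, 9.27, 11.39 and 11.06 in PBS and at 12.96, 12.91, 12.73 and 12.82 in SP. PBS samples were scattered and SP samples nearly alike, with SDs of 0.94 and 0.11. Ptafr rose by 2.34 log2 units, or 5.06-fold (SE 0.41, n = 4 per group, 95% interval 1.41 to 3.27, adjusted p = 0.00219 by limma), and by 1.92 without PBS replicate 2.

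Gpr84 (NM_030720), a receptor for medium-chain fatty acids that is induced in myeloid cells by bacterial products, changed most of the 8. Its values were 8.32, 6.55, 8.95 and 8.89 in PBS and 12.49, 12.42, 12.68 and 12.39 in SP. The lowest SP sample was more than 3 log2 units above the highest PBS sample. Gpr84 rose by 4.32 log2 units, or 20-fold (SE 0.48, n = 4 per group, 95% interval 3.21 to 5.42, adjusted p = 0.000223 by limma). A called rise of at least 8-fold was found in 0.755% of all rows. Without PBS replicate 2 the rise was 3.78 log2 units, or 13.7-fold, with a smaller SE of 0.16.

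Hcar2 (NM_030701), the receptor for niacin and the ketone body beta-hydroxybutyrate, followed a similar course with a wider PBS group. PBS samples lay at 10.86, 8.77, 11.78 and 11.80 and SP samples at 13.56, 13.55, 13.35 and 13.25. The groups did not overlap, and PBS replicate 2 was more than 2 log2 units below its group's other samples. Hcar2 rose by 2.62 log2 units, or 6.17-fold (SE 0.61, n = 4 per group, 95% interval 1.23 to 4.02, adjusted p = 0.00924 by limma). Without PBS replicate 2 it was 3.86-fold higher, at 1.95 log2 units (adjusted p = 0.000636). The SP values of Hcar2 approached the maxima of the SP arrays (14.06 to 14.45), where differences may be compressed, which was not tested.

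**Figure D3:**
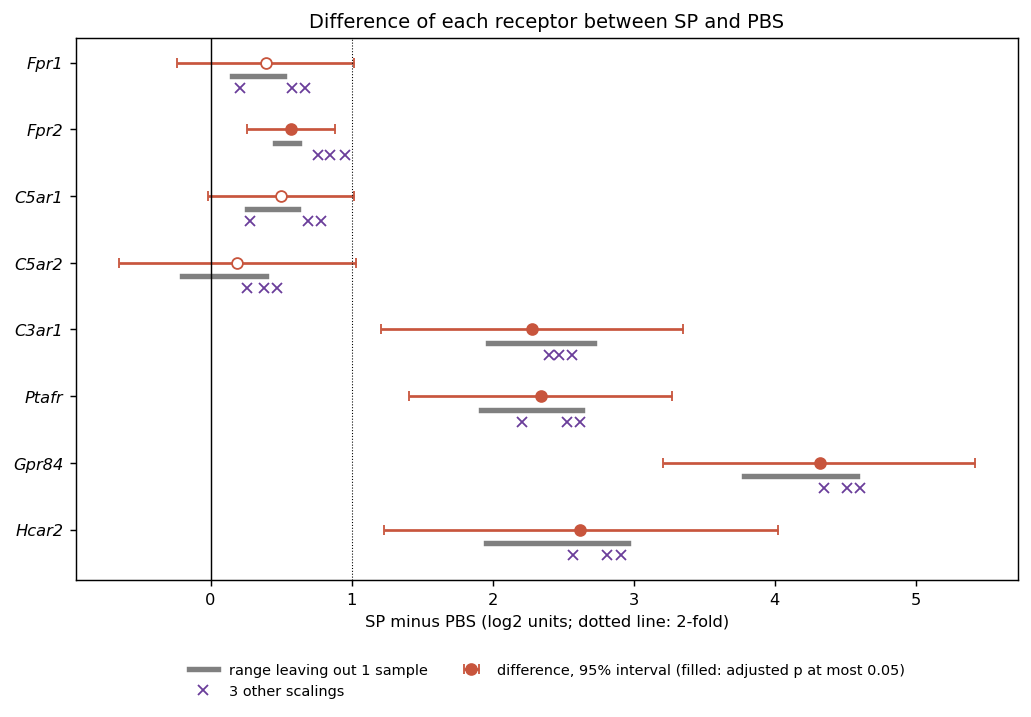
SP minus PBS difference of each receptor in log2 units (circles, filled where the adjusted p by limma was at most 0.05) with its 95% interval, the range over leaving out each sample in turn (grey bars) and the values under 3 other scalings of the arrays (crosses). The 4 rises of at least 2-fold stay to the right of the dotted 2-fold line throughout, and the interval of each of Fpr1, C5ar1 and C5ar2 spans 0.

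Gpr84 and Hcar2 were compared as a difference on the same array, which removes a shift common to all rows of an array but no other effect of scaling. Hcar2 minus Gpr84 was 2.54, 2.22, 2.83 and 2.91 in PBS and 1.06, 1.13, 0.67 and 0.86 in SP, where only its change has a meaning, since rows differ in probe response. The groups did not overlap. The change was -1.69 log2 units (SE 0.19), so that Gpr84 gained 3.23-fold on Hcar2 in these array values. Its exact two-sided permutation p was 0.0286, the smallest that 70 arrangements allow, and 0.114 after adjustment over the 4 pairs examined, which cannot fall lower for a lone pair. The change stayed between -1.83 and -1.60 when each sample was left out in turn, and was -1.79 after another quantile normalization. The SP values of Hcar2 were close to the array maxima, as given above, and the part of compression in this change was not tested.

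**Figure D4:**
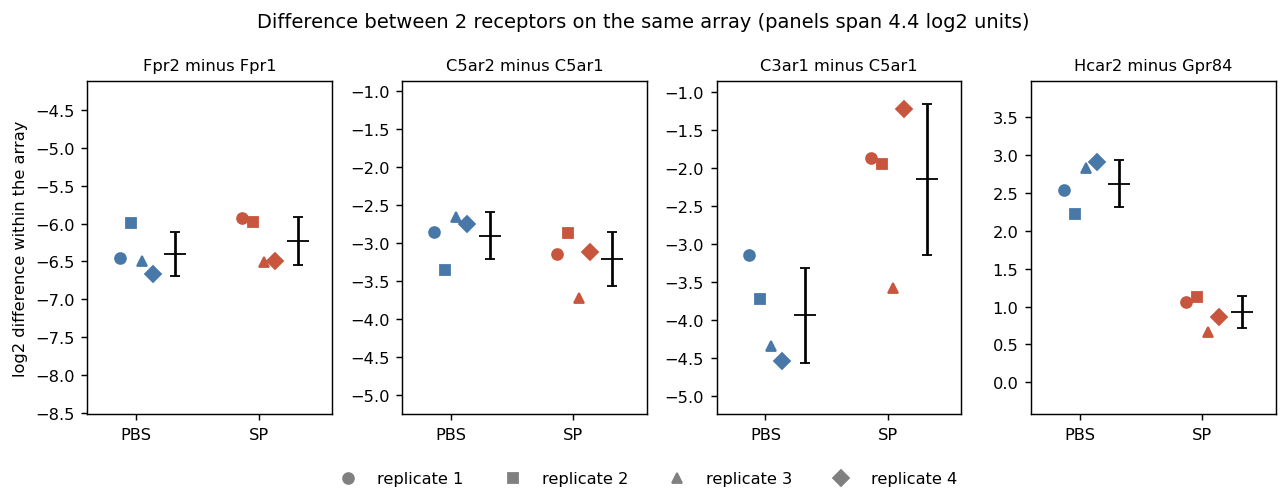
Within-array log2 difference between 2 receptors (vertical axis) in PBS (blue) and SP (red) samples, with symbols for the replicate and black marks for mean and SD (n = 4). Hcar2 minus Gpr84 is lower in every SP sample than in every PBS sample, and the other 3 pairs overlap between groups.

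Sequence around the start of each gene was taken from RefSeq on GRCm38.p6 to show the starts of called receptors. A window from 250 bases before the start to 50 after it was listed for 7 of the 8 receptors, and Hcar2 had none. The windows of the 3 receptors that rose at least 2-fold and of Fpr2, the other one called, are shown 5′ to 3′ because these are the rising members whose start can be read. Capitals mark matches to any of 6 letter patterns on either strand, namely TTCNNNGAA (STAT), TGANTCA (AP-1), TTGCNNAA (C/EBP), GAGGAA (PU.1) and patterns for NF-kB and the interferon-stimulated response element.
Gpr84, chr15:103310389-103310688, minus strand: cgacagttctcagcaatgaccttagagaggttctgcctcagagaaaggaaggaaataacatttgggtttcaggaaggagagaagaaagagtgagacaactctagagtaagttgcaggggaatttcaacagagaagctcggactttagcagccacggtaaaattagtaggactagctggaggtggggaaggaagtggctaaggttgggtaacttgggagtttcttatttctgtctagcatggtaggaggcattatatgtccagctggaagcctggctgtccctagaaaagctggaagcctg
Ptafr, chr4:132563817-132564116, plus strand: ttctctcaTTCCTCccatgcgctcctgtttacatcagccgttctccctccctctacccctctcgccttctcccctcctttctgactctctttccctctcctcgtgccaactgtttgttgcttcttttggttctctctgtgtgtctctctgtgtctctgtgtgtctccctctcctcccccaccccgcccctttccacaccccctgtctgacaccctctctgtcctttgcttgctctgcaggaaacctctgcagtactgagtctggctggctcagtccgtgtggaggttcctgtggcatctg
C3ar1, chr6:122856108-122856407, minus strand: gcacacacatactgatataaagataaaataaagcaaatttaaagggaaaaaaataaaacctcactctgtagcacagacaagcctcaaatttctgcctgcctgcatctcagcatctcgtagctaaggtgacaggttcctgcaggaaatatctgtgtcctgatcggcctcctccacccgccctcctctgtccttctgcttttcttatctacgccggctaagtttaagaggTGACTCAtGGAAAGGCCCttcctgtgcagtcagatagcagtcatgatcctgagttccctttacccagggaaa
Fpr2, chr17:17887574-17887873, plus strand: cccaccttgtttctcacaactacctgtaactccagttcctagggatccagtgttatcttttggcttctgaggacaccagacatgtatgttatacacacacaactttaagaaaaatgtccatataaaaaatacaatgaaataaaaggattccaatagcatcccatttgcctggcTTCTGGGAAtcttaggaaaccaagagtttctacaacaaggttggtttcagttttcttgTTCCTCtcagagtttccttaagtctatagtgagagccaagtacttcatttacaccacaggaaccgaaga
Gpr84, which changed most, held none of the 6 patterns in its window. Ptafr held only TTCCTC (PU.1 on the other strand), at -242 to -237 from the start, a pattern that 28.3% of all 32851 windows hold on 1 strand or the other. C3ar1 held TGACTCA (AP-1) at -22 to -16 and GGAAAGGCCC (NF-kB) at -14 to -5. These patterns are found in 7.81% and 1.63% of all windows. Fpr2 held TTCTGGGAA (STAT) at -77 to -69, a pattern of 8.30% of windows, and TTCCTC at -19 to -14. The patterns do not overlap each other in these windows. No pattern was shared among Gpr84, Ptafr and C3ar1. A match describes letters only, and the absence of a match says only that these letters are not in this window.

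Receptors related to these 8 by ligand or structure showed rises of the same kind in some members. Of 19 measured receptors, 6 rose 2-fold or more in SP (6.37% of all rows did) and 1 fell that far (11.3% of all rows), while 10 were not called. Their median difference was 0.24 log2 units, against 0.10 over all rows. Ffar2, a receptor for short-chain fatty acids, rose 7.71-fold from 6.12 to 9.07 (adjusted p = 6.63e-05 by limma). Ccrl2, which binds chemerin without signalling, rose 3.81-fold (adjusted p = 0.0226), with a low PBS replicate 2 (9.62 against 11.77 to 12.35) as in the receptors above. Gpr132, a lysophospholipid and lactate sensor, rose 3.05-fold (adjusted p = 0.0360). Ffar4, a receptor for long-chain fatty acids that lung epithelium also expresses, fell by 2.11 log2 units (adjusted p = 4.17e-05). The count of 6 was not firm. It was 2 under the methods' t-test and 2 without SP replicate 1.

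Other classical neutrophil chemoattractant receptors, Cxcr2 and Ltb4r1, were not called. Cxcr2, the receptor for CXC chemokines, was at 13.11 ± 0.13 (SD, n = 4) in PBS and 12.87 ± 0.09 in SP, a difference of -0.24 (adjusted p = 0.0562 by limma). Ltb4r1, the high-affinity leukotriene B4 receptor, was at 8.41 and 8.24 (difference -0.17, SE 0.34, adjusted p = 0.688). Among close relatives of the formyl peptide receptors, Fpr-rs3 (4.79 in PBS and 5.25 in SP, called higher with a difference of 0.45, adjusted p = 0.0231, and no overlap) and Fpr-rs4 (5.16 in PBS, difference 0.45, adjusted p = 0.0778) lay near the lower quartile of the arrays (4.63 to 4.93), and Fpr-rs6 was below it in all 8 samples.

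Of 26 G proteins and effectors that carry the receptor signal, 9 were called, where 44.1% of all rows were called. At 2-fold or more 4 rose (6.37% of all rows) and 0 fell by limma (11.3% of all rows), with 2 called lower at any size. Their median difference was 0.18 log2 units. The inhibitory alpha subunit Gnai2 (difference -0.08), the catalytic subunit Pik3cg (-0.16) and Rac2 (0.05) were not called. Regulatory subunits of phosphoinositide 3-kinase gamma were higher, Pik3r5 by 2.62-fold (adjusted p = 0.00444) and Pik3r6 by 2.13-fold (adjusted p = 0.00409). Vav1, an exchange factor for Rac, rose 3.15-fold (adjusted p = 0.00106), and Gna13, a G protein alpha subunit, rose 2.46-fold with groups far apart (11.28 ± 0.05 in PBS and 12.57 ± 0.13 in SP, SD, n = 4, adjusted p = 1.52e-05). A single effector passed 2-fold downwards without SP replicate 4.

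Of 14 genes that switch the receptors off, 7 were called, a share near the 44.1% of all rows. At 2-fold or more 2 rose and 3 fell (6.37% and 11.3% of all rows), with a median difference of -0.40 log2 units. Rgs16 rose from 6.22 to 8.43, or 4.62-fold (adjusted p = 0.00183), and Rgs1 from 9.48 to 11.57, or 4.24-fold (adjusted p = 0.00351). Both shorten signalling through inhibitory G proteins. Another member of that family, Rgs18, fell by 1.81 log2 units (adjusted p = 0.0155), although SP replicate 3 (9.90) lay within the PBS range (9.52 to 11.27). Arrb1, which encodes beta-arrestin 1, fell by 1.40 log2 units, with PBS at 10.53 ± 0.16 and SP at 9.13 ± 0.15 (SD, n = 4 each, adjusted p = 3.94e-05), while Arrb2 was not called (difference 0.24). The kinase Grk6 was at the 2-fold threshold (2-fold lower, adjusted p = 0.0157, groups overlapping), and Grk2 was not called (difference -0.35).

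Ligand genes and enzymes that make or break down ligands were called in 18 of 25 cases, where 44.1% of all rows were called. At 2-fold or more 4 rose and 7 fell (6.37% and 11.3% of all rows), and the median difference was -0.31 log2 units. Saa3, a serum amyloid A protein of the family that binds Fpr2, was at 6.69, 7.03, 6.45 and 6.41 in PBS and at 12.56, 12.44, 12.93 and 12.93 in SP. Its groups were about 6 log2 units apart (adjusted p = 5.04e-07). Saa2 was called higher (adjusted p = 0.00900), but its PBS values of 4.09 to 4.30 lay below the lower quartile of the arrays, so no fold is given, and its SP values were spread from 4.89 to 7.43. The gene of complement factor B, Cfb, rose 5.98-fold (adjusted p = 3.25e-05). When dim rows were left out, the count of 2-fold rises was 2. C3, at 12.38 in PBS against 12.62 in SP, missed the threshold (adjusted p = 0.0583). Hc, the gene of complement C5, was 8.01-fold lower, going from 11.44 to 12.13 in PBS samples to 7.95 to 9.08 in SP samples (adjusted p = 7.24e-05). Cpn1, a carboxypeptidase that inactivates C3a and C5a, fell by 2.48 log2 units (adjusted p = 2.52e-05). Anxa1, which encodes the Fpr2 ligand annexin A1, fell by 0.96 (adjusted p = 0.0232), with SP replicate 3 (12.29) inside the PBS range. Camp was not called (difference 0.89, adjusted p = 0.314). The mean of the epithelial markers differed by -1.64 log2 units in the same samples, and their part in the falls of Hc and Cpn1 was not tested.

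**Figure D5:**
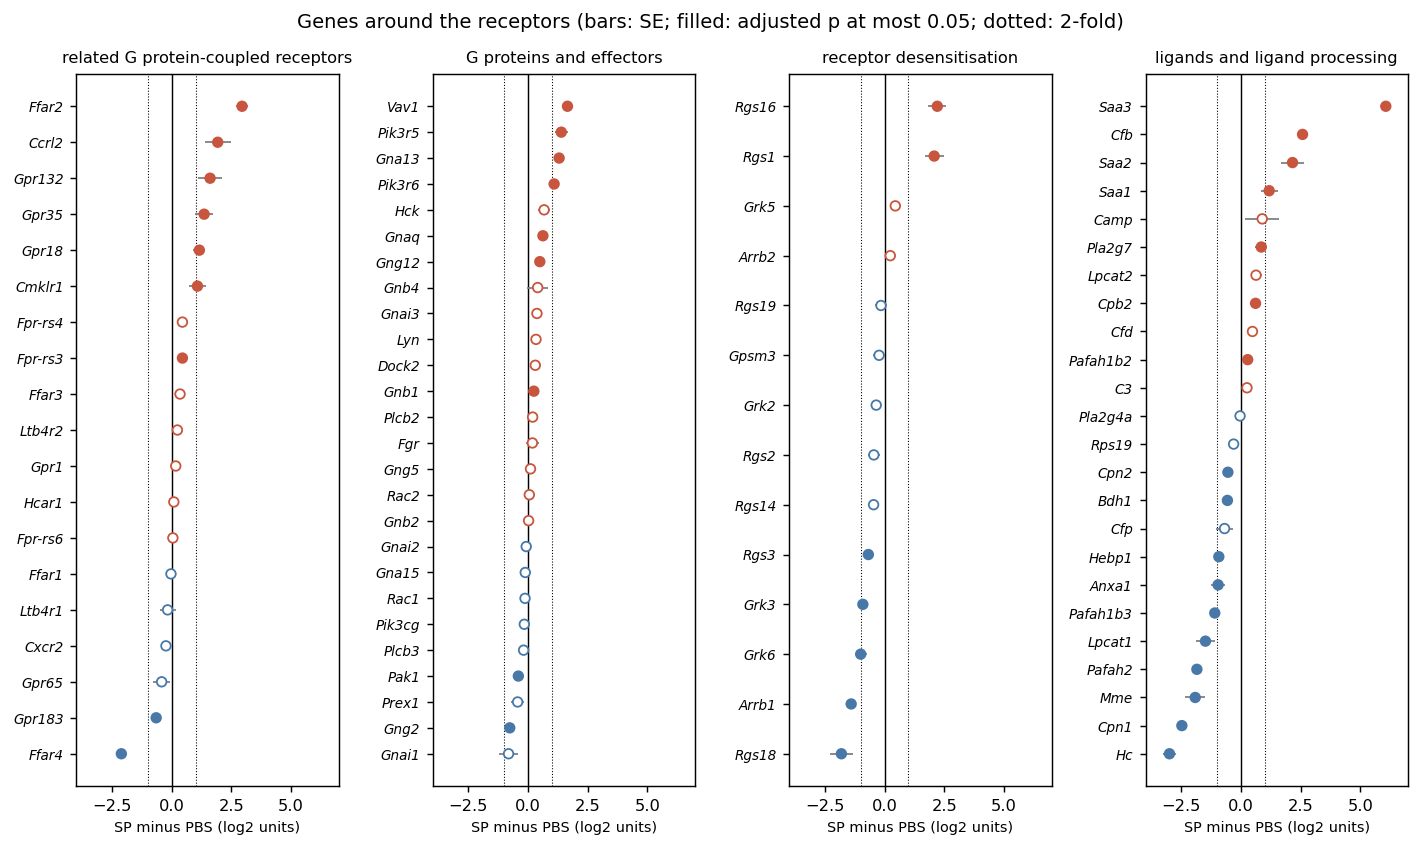
SP minus PBS difference in log2 units (horizontal axis, bars SE) of the measured genes in 4 lists around the receptors (1 ligand gene not shown), filled where the adjusted p by limma was at most 0.05, with dotted lines at 2-fold. Saa3 stands far to the right at 6.07 and Hc is farthest to the left, while most G proteins and effectors lie between the dotted lines.

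Genes whose values ran most like each raised receptor over the 8 samples were found by Pearson's r, which mostly reflects the difference between groups and is given as a description. Gpr84 ran with Ddx58, Rhoh and Slfn8 (r = 0.999 each), Ptafr with Rnf34, Jdp2 (0.998 each) and Neu1 (0.997), and Hcar2 with Sat1 (0.998), Pramel12 and Fcgr4 (0.997 each). Such likeness was common, since 842 symbols passed r = 0.95 with Gpr84, 589 with Ptafr and 398 with Hcar2. C3ar1 had 56 such symbols, led by the monocyte chemoattractant gene Ccl7 (0.986), which was at 7.26 in PBS and 10.43 in SP. Ptpro (0.983) and Rars (0.982) came next.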

How the data were processed

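Total RNA of 8 samples of lung neutrophils, 4 PBS and 4 SP, was hybridised to Affymetrix Mouse Gene 1.1 ST arrays. According to the study's methods, the authors made the deposited log2 values by robust multi-array averaging: background was corrected, probe sequence and GC effects were adjusted for, arrays were quantile normalized and the probes of a gene were summarised by median polish. The values are relative within an array, so a change in total RNA cannot be read from them. No genome build is attached to the table. Of 24625 rows, 19915 (80.9%) received a symbol by matching RefSeq accessions without versions to RefSeq genes of GRCm38.p6. Where a symbol had several rows (78 symbols, among the genes listed here only Rgs3), the row with the highest mean was used.

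SP and PBS were compared over all rows with limma 3.58.1 (R 4.3.3; lmFit and eBayes, two-sided, Benjamini-Hochberg adjustment), with thresholds of 0.05 and 2-fold (1 log2 unit). Differences between 2 receptors on the same array were compared by an exact permutation test over 70 arrangements (Python 3.11.15). The limma and t-test code was first tested on simulated data. Named genes were the 8 receptors, the 3 largest called rises and falls of each list at 2-fold, 8 fixed genes (C3, Hc, Anxa1, Camp, Saa3, Cxcr2, Ltb4r1 and Ffar2), the 2 brightest markers of a list and the 3 genes most like each raised receptor. Some genes of the lists entered the counts but are not reported here by name. Other list genes, such as Pik3r6, Gnai2, Arrb2 and the markers beside C3ar1, were named after their values were seen. The members and lists were chosen with earlier results of these data known, and the promoter patterns after the values were seen. Alternatives were the methods' t-test, an intensity trend with robust prior, a replicate block, weights per array, 3 other scalings, leaving out dim rows and leaving out each sample. Leaving out PBS replicate 2 and SP replicate 3 together was added after seeing the data. Outlying samples were sought with Dixon's ratio (critical value 0.829 for 4 samples).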

Additional observations from a re-analysis of the deposited data

Results flagged for a closer look

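Dixon's ratio was taken for the receptors, their pairs, 4 marker means and the other genes named here except Chil3, Ptpro and Rars. In 4 of 146 groups of 4 samples a sample stood apart, where chance flags about 1 in 20. Camp, the cathelicidin gene, was at 10.94 log2 units in SP replicate 3 against 7.60 to 8.17 in the other SP samples. In PBS replicate 2, Pla2g7 was at 11.13 against 12.17 to 12.31 and Cd68 at 10.82 against 11.77 to 11.93 in the other PBS samples. Neu1 was at 10.30 in SP replicate 4 against 10.37 to 10.38. No receptor was singled out in this way.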

How the results depend on the processing

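The rises of Fpr2, C3ar1, Ptafr, Gpr84 and Hcar2 kept their direction and their call under all 17 alternatives. Centring each array on its median added 0.28 log2 units to the median difference of all rows and centring on the neutrophil markers added 0.19. C5ar1 became called under both, at 0.78 and 0.69. C5ar2 turned to -0.01 with array weights and, over leaving out each sample, ranged from -0.20 to 0.39. With PBS replicate 2 and SP replicate 3 both left out, Fpr1 was -0.01 and C5ar2 -0.06. The cause of these changes was not tested. Rows called numbered 10860, and 18255 with arrays centred on their median and 6805 with arrays centred on the neutrophil markers. Rows at least 2-fold higher numbered 1568 (36.1% of those at 2-fold), and 2375 (55.6%) with median centring, 2019 (49.7%) with the neutrophil markers and 1878 (46.1%) after another quantile normalization. Deviations of same-numbered samples had r = 0.02, 0.03, 0.35 and -0.27, which cannot settle whether the numbers pair the samples. A fit with the replicate block called 9842 rows and changed no receptor's call. In that fit Fpr1 was at 0.39 (adjusted p = 0.0669 by limma) and C5ar1 at 0.50 (0.0706). Using another row of a receptor was not run, since each had 1. None of the 4 receptor pairs passed an adjusted p of 0.05 under any of 9 alternatives. A lone pair cannot pass after this adjustment, whatever its difference, so this does not measure how firm a pair is.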

Other observations

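Related receptors that were dim on these arrays are given as values. Fpr-rs6, Hcar1 and Ffar1 lay below the lower quartile of the arrays in all 8 samples. Hcar1, the lactate receptor related to Hcar2, was at 4.49 in PBS and 4.58 in SP (difference 0.09, adjusted p = 0.499 by limma). The short-chain fatty acid receptors parted, with Ffar2 raised as described and Ffar3 at 4.38 in PBS and 4.73 in SP (difference 0.35), which was not called. Among enzymes of PAF, Pafah2, an intracellular acetylhydrolase, fell by 1.85 log2 units (adjusted p = 4.79e-05), while Pla2g7, the secreted acetylhydrolase, rose by 0.85 (adjusted p = 0.0290) with every SP sample (12.70 to 13.08) above every PBS sample (11.13 to 12.31). The PAF-synthesising enzymes Lpcat1 and Lpcat2 differed by -1.49 (adjusted p = 0.0148) and 0.63 (adjusted p = 0.0525). Lpcat1 is also a gene of alveolar type 2 cells, whose part in its fall was not tested.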
